A study of Mus musculus with 89 samples.

Results

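Gnas, Gnal, Kctd17 and Adcy5 are 4 genes of stimulatory G protein (Gs) signalling in striatal neurons, and every exon skipping event listed for them was taken from 2 deposited tables of nucleus accumbens RNA. The HSV table held 26 events of these genes among 27900: 12 of Gnas, 11 of Kctd17, 3 of Adcy5 and 0 of Gnal. The dCas9-SET2 table held 12 among 5608, of which 4 belonged to Gnas and 8 to Kctd17. Gnas and Kctd17 were singled out because of their inclusion levels in the HSV table, so their values there are a description with no p-value. Counts of calls from a fit over all events are printed beside the share called among all events, and nothing is read from them. Gnal and Adcy5 were added as partners of the same pathway.

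A stimulatory G protein carries the signal of a receptor to adenylyl cyclase, the enzyme that makes cyclic AMP, which in turn activates protein kinase A. Medium spiny neurons, the main neurons of the striatum, receive dopamine and adenosine signals through this route. Gnas encodes the alpha subunit Gs alpha, Gnal the related olfactory subunit, which is the main form in the striatum, and Adcy5 the main striatal adenylyl cyclase. Kctd17 encodes a BTB domain adaptor of the cullin-3 ubiquitin ligase. Variants of Gnal, Kctd17 and Adcy5 are linked to inherited movement disorders. Gnas is an imprinted locus with several first exons that splice to shared downstream exons, and its first exons give Gs alpha, the larger XL alpha s, the unrelated protein NESP55 and noncoding exon 1A transcripts. An alternative exon shortly after the first one makes long and short forms of Gs alpha.

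All RNA came from nucleus accumbens, a reward region of the ventral striatum, of wild-type C57BL/6 mice aged 8 weeks. In the HSV experiment a herpes simplex virus carried GFP (HSV-GFP), the H3K36 methyltransferase Set2 (HSV-Set2) or Set2 with the substitution R195G (HSV-R195G), with 3 labelled samples per group. In the dCas9-SET2 experiment Set2 was fused to catalytically inactive Cas9 and sent to Srsf11, a splicing factor gene (sgRNA-SRSF11), or given a non-targeting guide (sgRNA-NT), each guide with 4 sample numbers sequenced in 4 runs. Which cells received the vectors, and whether a sample is 1 animal or a pool, is not stated in the labels. The dissected tissue also holds cells that received none. The HSV table lists its libraries without sample names, 2 in one set and 3 in the other, called the smaller and the larger set here, so no virus can be assigned to either and differences are given as the larger minus the smaller set. The dCas9-SET2 table lists 16 runs in each of 2 unnamed sets, and no guide was assigned.

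HSV libraries held 7428974 to 8638249 reads over all listed events and dCas9-SET2 runs 56946 to 106251. In the dCas9-SET2 table the runs at positions 4 and 8 had identical reads in every event of both sets, while other pairs of runs shared at most 14.1% of events. They were counted once, which left 15 distinct runs per set. Markers of medium spiny neurons were present in all HSV libraries, with 11 of 16 listed, but Drd1 and Adora2a, which define the pair of classes, were not among the listed genes. Within the smaller set the second library stood apart: Ttr, a marker of choroid plexus epithelium, had 40145 reads there, 1644 in the first library of that set, and 49, 28 and 24 in the larger set. Values without that library are therefore given for the Gnas 45-nt exon, the Kctd17 94-nt exon and the coverage of Gnas, Kctd17 and Adcy5. Marker lists and pathway genes are given with all libraries only. Nothing in the labels says that libraries came from separate animals, so their spread may be technical.

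The 130 bases before 3 start sites of Gnas are shown, as RefSeq gives them on the plus strand of build GRCm38.p6. The HSV exons use other coordinates and were not placed on these starts. No window is thus tied to a difference between the HSV sets. The farthest upstream window lies at chr2:174284190-174284319, the window of exon 1A at chr2:174327638-174327767 and that of Gs alpha exon 1 at chr2:174329876-174330005. Capitals mark CTTTATAGGG, the longest run of letters that the first and second of these share. The run was found after the windows had been compared.
farthest upstream start: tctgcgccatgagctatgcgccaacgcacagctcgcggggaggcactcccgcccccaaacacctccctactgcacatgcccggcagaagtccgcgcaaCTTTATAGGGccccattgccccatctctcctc
exon 1A start: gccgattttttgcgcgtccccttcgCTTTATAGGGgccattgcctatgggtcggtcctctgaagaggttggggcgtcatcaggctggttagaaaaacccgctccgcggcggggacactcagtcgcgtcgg
Gs alpha exon 1 start: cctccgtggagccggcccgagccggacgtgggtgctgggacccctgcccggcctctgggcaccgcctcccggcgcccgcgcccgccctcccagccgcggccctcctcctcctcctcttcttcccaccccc
The shared run begins 32 bases before the farthest upstream start and 105 bases before the exon 1A start, and is not in the Gs alpha window on either strand (CTTTATAGGG or CCCTATAAAG). Of 32851 windows of this length in the RefSeq table, 5 hold it (0.0152%), 3 of them among the 4 windows of Gnas. The first and second windows hold it by the way it was found, so nothing is read from these counts. The other Gnas window that holds it is not shown. The windows differ in base composition, with 63.8% G or C before the farthest upstream start, 60.8% before exon 1A and 80.0% before Gs alpha exon 1, against a median of 53.8% over all windows. In the dCas9-SET2 table the upstream exon of a Gnas event (chromosome 2, 174327768 to 174327941) begins exactly at the exon 1A start.

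The 45-nt alternative exon of Gnas, which sets the long form of Gs alpha, was included in nearly all transcripts and skipped least in the larger set. The HSV table places it at 174162248 to 174162292 of chromosome 2, between a 73-nt exon and a 55-nt exon. Junctions from far upstream exons of Gnas also reach the 73-nt exon, so reads of this event cannot be assigned to Gs alpha alone. The inclusion level (PSI) is the share of transcripts that include an exon, from inclusion and skipping reads each divided by the length they can fall on. Skipping made up 3.89% and 5.54% of transcripts in the smaller set and 2.02%, 2.05% and 1.75% in the larger set. The sets did not overlap, and PSI was 0.0277 higher on average in the larger set, or 0.0195 higher without the library that stood apart.

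Of the counts behind this PSI, the inclusion reads separated the sets and the skipping reads did not. Inclusion reads per 1000000 reads over the deepest event of each gene, scaled with TMM (RPM), were 531 and 565 in the smaller set and 1058, 1197 and 1056 in the larger set, a ratio of 2.01 with no overlap. Skipping RPM were 16.5 and 25.5 against 16.8, 19.3 and 14.5, and the sets overlapped. The raw skipping reads were 67 and 104 against 69, 72 and 53. A second event of the same exon, spliced to a later downstream exon, had PSI of 0.998 or more in every library.

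Listed skipping junctions to the 73-nt exon of Gnas start from 3 upstream exon ends, and both of the farther ones were used almost only in the larger set of the 5 HSV libraries. The farthest upstream listed exon ends at 174110978, with versions of 222 nt and 874 nt. Its junction to the 73-nt exon, which skips a 96-nt exon (174113992 to 174114087), had 0 and 17 reads in the smaller set. In the larger set it had 271, 238 and 265 reads. A count of 0 allows up to 3 reads, or 0.740 RPM in that library. The 96-nt exon itself was almost unused, with 2 inclusion reads in the second library of the larger set and 0 in the other four.

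Scaled by library, that junction had 0 and 4.17 RPM in the smaller set and 65.8, 63.7 and 72.4 in the larger set. Per 1000 reads of the shared 120-nt exon of Gnas it had 0 and 2.98 against 28.4, 23.9 and 30.7. The sets thus did not overlap on either scale, and the 17 reads of the smaller set all came from the library that stood apart.

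A 95-nt exon downstream of a 2359-nt upstream exon (174125932 to 174126026) was also read mostly in the larger set. Both forms together had 0 and 8 reads in the smaller set and 51, 75 and 47 in the larger set. PSI could not be given in the first library, was 0.647 in the second and was 0.529, 0.412 and 0.566 in the larger set. The reads of the event did not overlap between the sets, while its PSI rests on a single value from 8 reads in the smaller set.

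**Figure D1:**
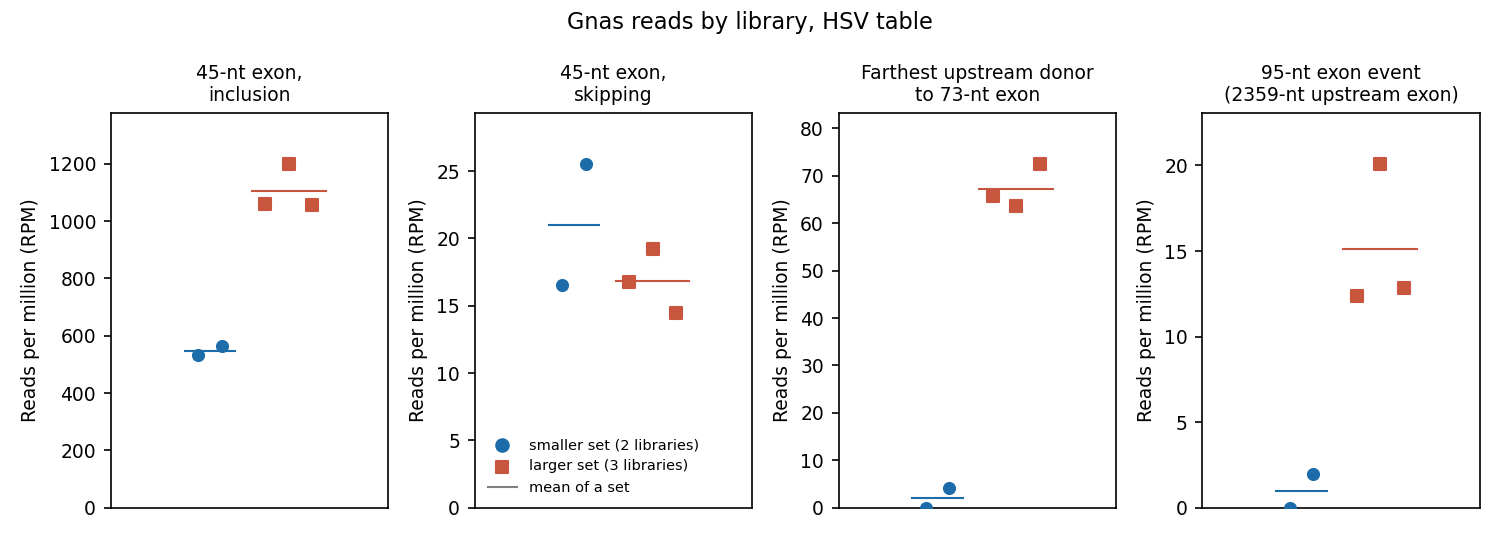
Gnas reads scaled to library size (RPM, vertical axes, linear from 0) in the 2 libraries of the smaller set (circles) and the 3 libraries of the larger set (squares), with the mean of each set as a line. Inclusion reads of the 45-nt exon and both upstream transcripts are higher in all 3 libraries of the larger set, while skipping reads of the 45-nt exon overlap.

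The exon choices that follow an upstream exon ending at 174153442 overlapped between the sets. A 24-nt exon had PSI 0.972 and 0.923 against 0.981, 0.926 and 0.911. The 2327-nt exon that shares its 5' end and its skipping reads had PSI 0.975 and 0.946 against 0.983, 0.937 and 0.929. Their shared skipping junction, from an exon ending at 174153442, had 4 and 10 reads against 6, 25 and 23. None of these values separates the sets. In the coordinates of the dCas9-SET2 table the Gs alpha exon 1 start lies inside the 2327-nt exon listed there, so reads of Gs alpha exon 1 can count as its inclusion. PSI of 0.99 or more in every library was seen for 6 of the 12 Gnas events, all in the shared body of the gene.

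Kctd17 had its alternative exons between a 126-nt exon and the terminal exon, and the larger set skipped them far more often. The exons are 94 nt (78267331 to 78267424 on chromosome 15 in the HSV table), 75 nt (78267588 to 78267662) and 88 nt (78268014 to 78268101). The 94-nt exon also has a longer version of 199 nt and the 75-nt exon one of 422 nt. The 94-nt and 88-nt exons are not multiples of 3 in length, while the 75-nt exon is. No exon sequence is shown, since no genome was used here.

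Splicing from the 126-nt exon straight to the terminal exon is the form that skips all of them. Its reads were 147 and 128 in the smaller set and 240, 251 and 226 in the larger set, although the gene as a whole had fewer reads in the latter. Per 100 reads of the constitutive 96-nt exon of Kctd17 this junction had 11.4 and 11.0 reads against 35.8, 39.8 and 37.0, a ratio of 3.35. The sets did not overlap, and the libraries within a set lay close together.

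PSI of the 94-nt exon against that junction was 0.548 and 0.526 in the smaller set and 0.158, 0.139 and 0.140 in the larger set, a difference of -0.391. For the 199-nt version it was 0.476 and 0.462 against 0.131, 0.116 and 0.113. The 88-nt exon had 0.493 and 0.486 against 0.161, 0.181 and 0.171, and the 75-nt exon 0.134 and 0.197 against 0.027, 0.065 and 0.031. None of these 4 events overlapped between sets, but all 4 use the same skipping reads, so they are not 4 separate observations. Without the library that stood apart the difference of the 94-nt exon was -0.402.

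**Figure D2:**
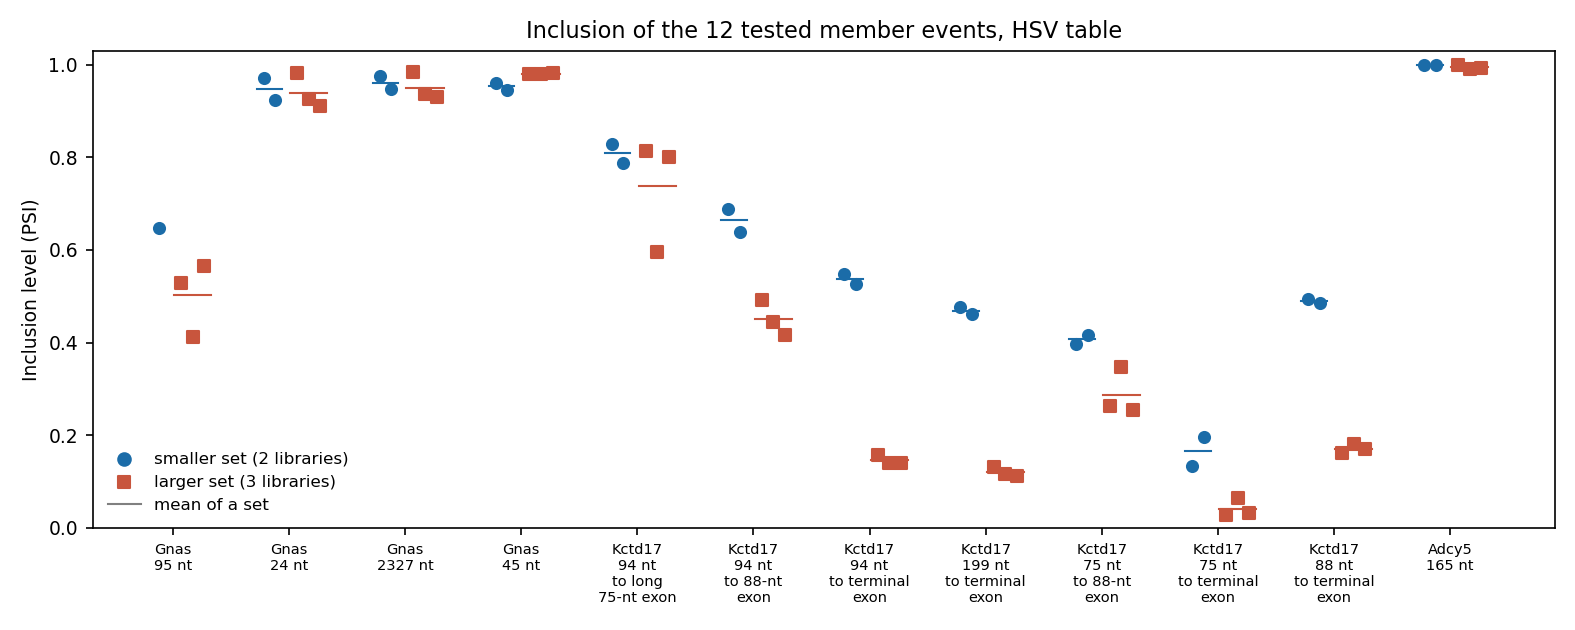
Inclusion level (PSI, 0 to 1) of the 12 member events with enough reads, by library, as circles for the smaller set and squares for the larger set, with set means as lines. The 94-nt, 199-nt and 88-nt exons of Kctd17, in events that end at the terminal exon, show the widest gaps. There the 94-nt exon is at 0.548 and 0.526 against 0.139 to 0.158, while the Gnas events lie near 1 except that of the 95-nt exon.

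Against the other Kctd17 junctions, PSI of the 94-nt exon moved less. Against the junction to the 88-nt exon, the 94-nt exon had PSI 0.688 and 0.640 in the smaller set and 0.492, 0.444 and 0.416 in the larger set, with no overlap. Against the same junction the 75-nt exon had 0.397 and 0.417 against 0.262, 0.348 and 0.254, also with no overlap. Against the junction to the 75-nt exon or its longer version, the 94-nt exon had 0.830 and 0.787 against 0.815, 0.596 and 0.801. Here the sets overlapped. The next exon after the 94-nt exon was taken from differences between events that share its entry and body reads. It was the one starting at 78267588 (the 75-nt exon or its 422-nt version) in 296 and 263 reads of the smaller set and 79, 50 and 46 of the larger set. The terminal exon followed in 0 and 0 reads against 2, 1 and 1, and the 88-nt exon in 0 reads in every library, so the event against the junction to the 88-nt exon holds no read that joins the 94-nt and 88-nt exons.

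Of the reads that leave the 126-nt exon past the 94-nt exon, the terminal exon took 48.7% and 44.1% in the smaller set and 78.4%, 71.9% and 77.1% in the larger set. The 88-nt exon took 26.8% and 27.6% against 14.7%, 14.3% and 17.4%. The 75-nt exon or its longer version, which shares its start, took 24.5% and 28.3% against 6.86%, 13.8% and 5.46%. The terminal exon was thus the destination that gained share in each library of the larger set.

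In RPM, inclusion of the 94-nt exon was 71.5 and 56.6 against 17.7, 17.7 and 16.4, a ratio of 0.269. The constitutive 96-nt exon had 319 and 284 against 163, 169 and 167, a ratio of 0.551. The junction to the terminal exon went the other way, with 36.3 and 31.4 against 58.3, 67.1 and 61.7, a ratio of 1.84. Included and skipped forms of Kctd17 therefore lay on opposite sides of the change in the gene's coverage.

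**Figure D3:**
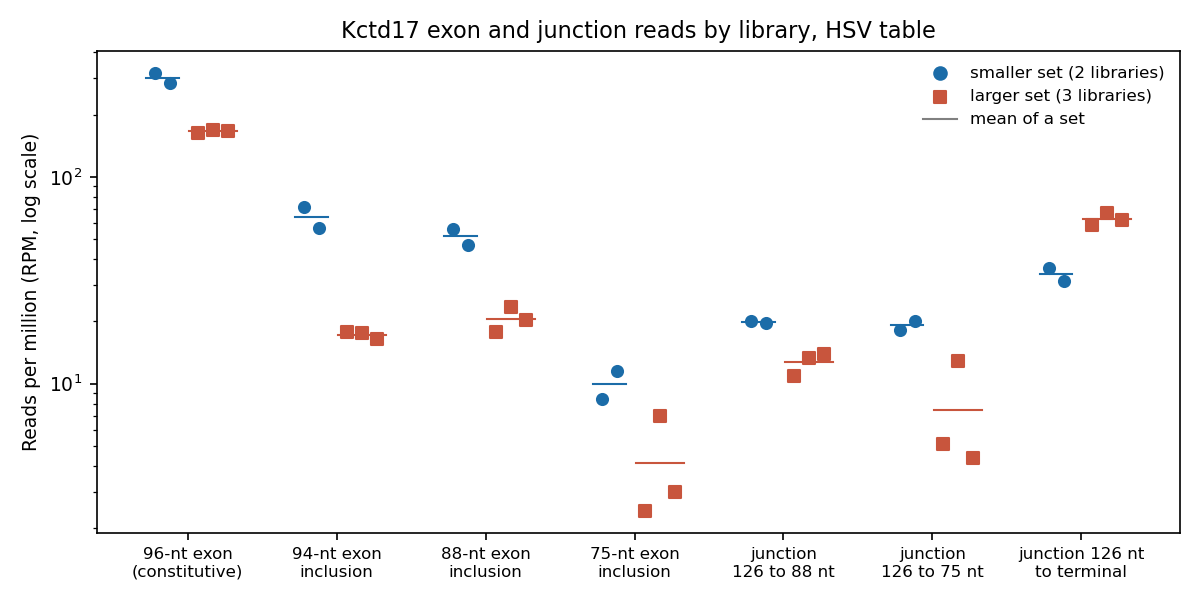
Scaled reads (RPM, log scale) over exons and junctions of Kctd17 by library, with circles for the smaller set, squares for the larger set and set means as lines. Only the junction from the 126-nt exon to the terminal exon is higher in the larger set, at 58.3 to 67.1 against 31.4 to 36.3, among the 7 features plotted.

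The listed exons of Adcy5 were included in nearly all reads. Its 23-nt and 30-nt exons (chromosome 16, from 35278581 and 35293104 in the HSV table) had PSI of 0.99 or more in every library, and the 165-nt exon (from 35290113) had 0.998 and 0.999 against 1, 0.99 and 0.992. The 165-nt exon had 2 and 1 skipping reads in the smaller set and 0, 6 and 4 in the larger set, beside 2357 and 2037 inclusion reads against 1260, 1220 and 1032. These values overlapped between the sets.

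Across all genes, 7754 events averaged at least 20 reads in a library with at least 10 for the rarer form in all, and limma on logit PSI called 286 of them at an adjusted p below 0.05 (3.69%). Of the 26 member events 12 passed this filter (4 of Gnas, 7 of Kctd17 and 1 of Adcy5), and 6 were called. The calls were the Gnas 45-nt exon, higher in the larger set (1.69% of all tested events), and 5 Kctd17 events, lower there (2.0%). Sets did not overlap in 7 of the 12, against 28.4% of all tested events. The genes were chosen from this contrast, so nothing is read from these counts.

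Of the 7742 other tested events, those with the PSI pattern nearest to the deepest tested Gnas event, the 2327-nt exon, over the 5 libraries were an 86-nt exon of Mgea5, a 27-nt exon of Kifc3 and a 72-nt exon of Atat1, with mean absolute differences of 0.00819, 0.0102 and 0.0103. For the 45-nt exon, added after its values were seen, they were a 63-nt exon of Pdzd4, a 61-nt exon of Ttc3 and a 118-nt exon of Atg9a, at 0.00493, 0.00510 and 0.00527. Nearest to the deepest tested Kctd17 event, the 199-nt exon, were a 450-nt exon of Epb41, a 264-nt exon of Samd4 and a 74-nt exon of Mindy3, at 0.0409, 0.0434 and 0.0516. The Kctd17 pattern thus had no neighbour as close as those of these Gnas exons, whose PSI lies near 1.

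Coverage, taken as reads over the deepest event of a gene, also differed between the sets for all 3 genes that are listed. Gnas had 1289 and 1401 RPM in the smaller set and 2317, 2662 and 2359 in the larger set, 1.82-fold higher in the latter (log2 0.86, SE 0.083). Kctd17 had 319 and 284 against 163, 169 and 167, 1.81-fold lower (log2 -0.86, SE 0.098). Adcy5 had 582 and 500 against 306, 328 and 283, 1.77-fold lower (log2 -0.82, SE 0.099). No gene's sets overlapped, and without the library that stood apart the log2 differences were 0.92, -0.94 and -0.93. Among 8201 genes, 13.0% were called higher and 9.54% lower, and since coverage comes from the same libraries as the choice of genes, nothing is read from these calls.

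Cell type markers moved with these levels. The medium spiny neuron list summed to 10281 and 8178 RPM in the smaller set and 3515, 3559 and 3362 in the larger set, with 10 of its 11 listed genes called lower and 0 higher. The interferon response list was 131 and 273 against 4105, 3682 and 4050, with 15 of 15 listed genes called higher. Microglia markers were 1159 and 2500 against 3221, 3171 and 3150 (5 of 8 listed genes higher), and astrocyte markers 1307 and 1744 against 1814, 1967 and 1837 (2 of 6 higher). Oligodendrocyte markers overlapped, at 6143 and 8241 against 10398, 7949 and 10212 (5 of 7 higher). In that list Enpp2 had 140 and 973 RPM against 198, 159 and 172. Its 973 RPM came from the library that stood apart, and the list was not summed without this gene. Fewer cells of a type and less RNA per cell cannot be told apart in these bulk libraries.

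Other marker lists had few listed genes. Of choroid plexus, 2 of 5 were listed and both were lower, at 435 and 9920 RPM against 37.4, 35.0 and 28.4. Nrgn, 1 of 5 cortex markers and also expressed in striatum, was at 1422 and 1133 against 349, 365 and 333. Calcr, 1 of 6 markers of septum and hypothalamus, had 3 and 4 reads against 36, 37 and 22. The 2 listed vascular markers of 5, Pecam1 and Flt1, were each at 0 in a library and summed to at most 5.59 RPM. The part of cell composition in the Gnas, Kctd17 and Adcy5 values was not tested.

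Set against the summed medium spiny neuron markers, all 3 genes were higher in the larger set. Per 100 reads of these markers, Gnas had 12.5 and 17.1 reads against 65.9, 74.8 and 70.2. Kctd17 had 3.10 and 3.48 against 4.64, 4.74 and 4.96, and Adcy5 had 5.66 and 6.11 against 8.71, 9.21 and 8.42. Kctd17 and Adcy5 were thus lower in RPM but not relative to this sum, and the sets did not overlap on either scale. Ppp1r1b alone gave 5563 and 4340 RPM of the sum in the smaller set. Penk (log2 -0.72), Tac1 (-0.66) and Pdyn (-0.23) were lowered less than Kctd17 (-0.86) and Adcy5 (-0.82), and the other listed markers more.

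**Figure D4:**
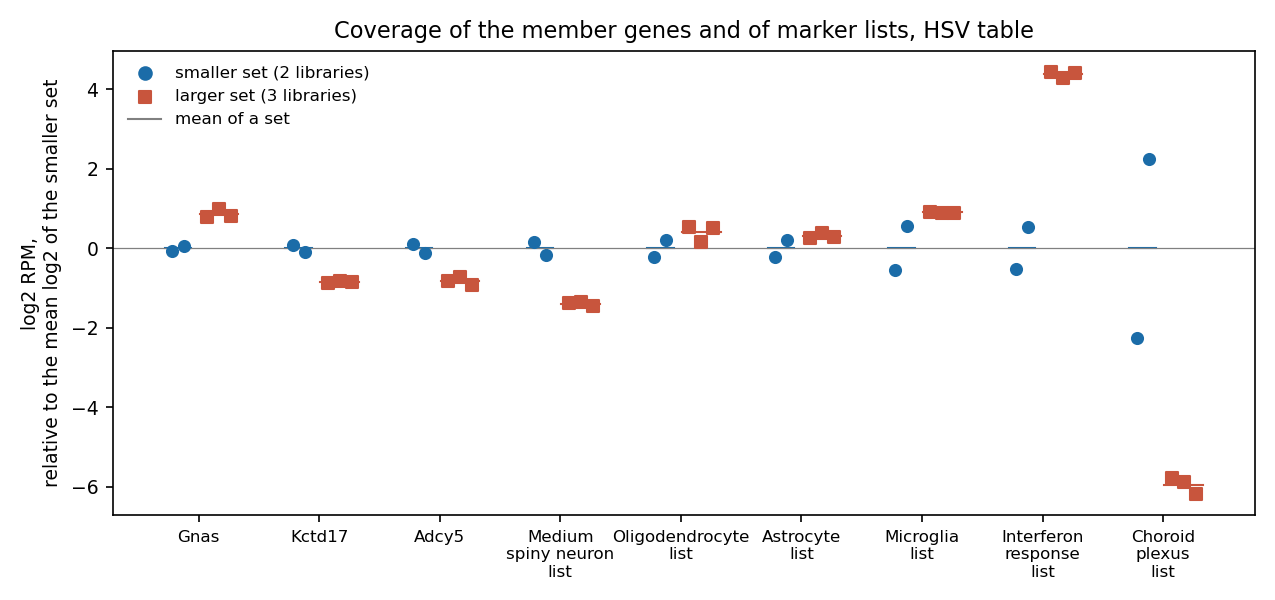
Coverage of Gnas, Kctd17 and Adcy5 and summed coverage of marker lists by library, as log2 RPM relative to the mean log2 of the smaller set, with circles for the smaller set, squares for the larger set and set means as lines. Gnas lies on the side of the interferon response and microglia lists, Kctd17 and Adcy5 on the side of the medium spiny neuron list, and the 2 choroid plexus values of the smaller set lie far apart.

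The wider pathway was followed in 73 other genes of receptors, G proteins, cyclases, phosphodiesterases and protein kinase A. Of these 55 had an event in the HSV table and 29 a tested one, and 2 of the 29 had a called event, against 5.82% of all genes with a tested event. A 120-nt exon of Ric8b, the chaperone of Gs-type alpha subunits (chromosome 10, 84464527 to 84464646), had PSI 0.544 and 0.520 against 0.437, 0.363 and 0.435. A 54-nt exon of Rapgef4, a cyclic AMP sensor that activates the small G protein Rap (chromosome 2, 72012480 to 72012533), had 0.615 and 0.625 against 0.497, 0.493 and 0.540. Both were lower in every library of the larger set. The 54 tested events of the list had a median absolute PSI difference of 0.0141, against 0.0310 over all tested events.

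Coverage of the list leaned lower. Of 53 list genes with coverage tested in limma, 17 were lower (9.54% of all genes tested) and 8 higher (13.0% of all genes), with a median log2 difference of -0.18 against -0.0036 over all genes. The lower ones included the striatal signalling genes Ppp1r1b (log2 -1.75), which encodes DARPP-32, Pde10a (-1.80), Pde1b (-1.68) and Drd2 (-1.46), and Gng7 (-1.32), the gamma subunit that pairs with the olfactory alpha subunit. Rgs9, which speeds up the shut-off of inhibitory G proteins, was at -1.79. Ppp1r1b, Pde10a, Drd2 and Rgs9 also belong to the medium spiny neuron list. Of the other cyclases, Adcy8 (2.31), Adcy6 (1.79), Adcy7 (1.59) and Adcy2 (1.13) were called higher, while Adcy1 (0.12), Adcy3 (0.15) and Adcy9 (-0.56) were not called. Adcy6, Adcy7 and Adcy8 were thinly covered, at 1.97 to 18.8 RPM in the 5 libraries. The G protein gamma gene Gng2 was higher by 1.18.

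The dCas9-SET2 table gave values of the same genes in runs that had no part in choosing them, with the adjusted p and PSI difference (second set minus first) of the authors' deposited table. None of its 12 member events was called (adjusted p in the authors' deposited table from 0.239 to 0.885), against 4.96% of 5287 events with an adjusted p. That table holds no unadjusted p-value, and its test is not named, so whether runs were tested singly is unknown. Runs share sample numbers and are not independent replicates. The deposited difference was below 0 for 8 and above 0 for 4, and for some of these events recomputed summaries of runs had the opposite sign. Median absolute size was 0.0486 over the members and 0.0338 over all events, and the Kctd17 runs held few reads.

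The Gnas 45-nt exon (174336747 to 174336791 there) was again almost always included. Its PSI over the 15 runs was 0.951 at the lowest, 0.967 at the median and 0.996 at the highest in the first set, and 0.937, 0.973 and 0.992 in the second. The runs overlapped almost fully, and in the authors' deposited table the difference was 0.00455 with an adjusted p of 0.311. Gnas reads of this event per 100000 reads of a run had a median of 317.5 in the first set and 317.7 in the second.

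The Gnas junction that skips the 96-nt exon in the HSV table has no listed event in the dCas9-SET2 table. The 95-nt exon was barely covered there. It had reads in 3 runs of the first set and 2 of the second, with 15 inclusion and 2 skipping reads against 4 and 1. A difference was thus not detectable at this depth. The 2327-nt exon had 7840 inclusion and 5 skipping reads in the first set and 5795 and 11 in the second (authors' deposited table: difference -0.0114, adjusted p 0.482). The 24-nt exon had 292 and 5 reads against 215 and 11 (authors' deposited table: difference -0.0489, adjusted p 0.239). Both share the same few skipping reads.

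For a 94-nt exon of Kctd17 (78436901 to 78436994 there) the runs of both sets overlapped over most of their range. Against the junction to the terminal exon, PSI over runs was 0.131, 0.303 and 0.526 (lowest, median, highest) in the first set and 0.054, 0.235 and 0.506 in the second, at a median of 22 and 10 reads per run. The HSV and dCas9-SET2 tables were made apart, so these levels are not compared with those of the HSV libraries. The authors' deposited table gave a difference of -0.0565 and an adjusted p of 0.482.

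For the other Kctd17 events, summed reads gave PSI 0.282 and 0.264 for the 199-nt exon, 0.617 and 0.448 for the 94-nt exon against the junction to the 88-nt exon, and 0.220 and 0.251 for the 88-nt exon in the first and second set. The widest difference in the authors' deposited table was -0.106, for a 63-nt version of the 94-nt exon with summed PSI 0.614 and 0.439 (adjusted p 0.378). None passed the threshold. Of the pathway list 24 genes had an event there, 23 of them with an adjusted p, and 2 were called, against 7.39% of all genes. In the authors' deposited table a 407-nt exon of Crtc2, a coactivator of CREB, differed by -0.14 (adjusted p 0.0208) and a 70-nt exon of Pkig, an inhibitor of protein kinase A, by 0.072 (adjusted p 0.0318).

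**Figure D5:**
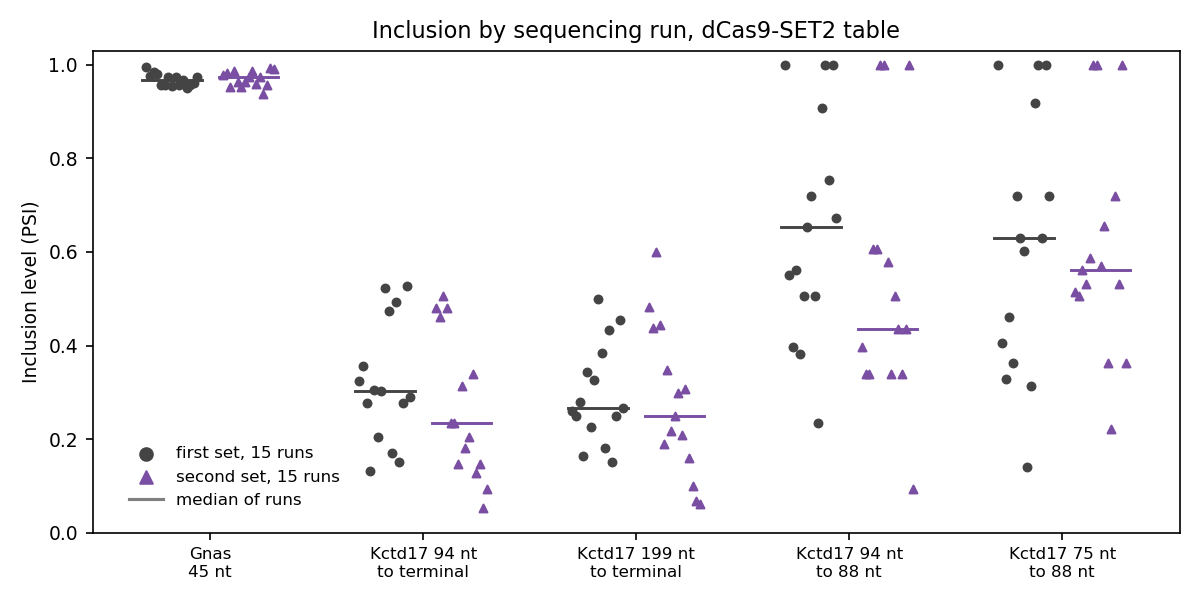
Inclusion level (PSI, 0 to 1) of 5 member events in the 15 distinct runs of each set of the dCas9-SET2 table, with circles for the first set, triangles for the second and medians as lines. The runs of both sets overlap in each event shown, tightly near 1 for Gnas and over a wide range for Kctd17, where runs hold few reads.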

How the data were processed

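Both tables list exon skipping events. Counts of inclusion and skipping reads were deposited by the authors as whole numbers joined within cells, with no sample names for the 5 HSV libraries and the 32 dCas9-SET2 runs. The submitters' processing notes name Bowtie2, STAR 2.4.1d and the builds mm9 and mm10, with no role for any, and no source used here names the event caller. The inclusion level is a fraction that, per the file headers, divides reads by form length, the exon plus 150 and 150 in the HSV table. Exon plus 99 and 99 gave the deposited dCas9-SET2 fraction in 100% of values within 0.001. The deposited p-value, adjusted p-value and difference score come from the authors, whose test is not named. Coordinates are printed 1-based as each table gives them and were not compared between tables: 0 of 12 Gnas and 0 of 11 Kctd17 exons of the HSV table, but all of those of the dCas9-SET2 table, lay inside the RefSeq GRCm38.p6 span of the gene.

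A count model had been planned for columns of counts. As counts stand joined in cells, limma 3.58.1 (R 4.3.3) was fitted to logit PSI with 0.5 added to each count and weights from the reads, over all 7754 events that passed the read minimums (20 per library on average, 10 for the rarer form), adjusted with Benjamini-Hochberg and called at 0.05. TMM (trims 0.3 and 0.05) scaled the coverage, and limma was run on its log2, which understates changes of low genes. Both fits were tested on simulated data, where the weighted fit made false calls once libraries varied beyond counting error, so an alternative with that spread in the weights was added. Alternatives were other read minimums, added counts, weights, scalings, gene summaries and leaving out each library. The genes, lists and rules were chosen with earlier results of these data known. Named genes are the 4 genes, list genes with a called event, and the 3 events nearest in PSI to the deepest tested event of Gnas and of Kctd17. The other names were chosen after their values were seen. The other 48 samples were not analysed here.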

Additional observations from a re-analysis of the deposited data

How the results depend on the processing

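Of all tested HSV events, 286 were called. Without weights limma called 0, with 790 at an unadjusted p below 0.05, and a spread between libraries added to the weights, an alternative chosen after seeing the data, gave 171. Leaving out each library in turn gave 150 to 236, the lowest without the smaller set's first library, and the authors' deposited FDR gave 974. The 6 calls of Gnas and Kctd17 were the same events in each setting except 2: 0 were called without weights, and 5 without the smaller set's first library, where the Kctd17 94-nt exon against the junction to the 88-nt exon was lost. The range without a library was 5 to 6.

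The PSI difference of the Gnas 45-nt exon was 0.0195 to 0.0360 when each library was left out, the extremes being without the second and the first library of the smaller set. That of the Kctd17 94-nt exon was -0.436 with no division by form length. With reads summed over exons in place of the deepest event, the log2 coverage difference of Gnas was 0.99 and that of Kctd17 -0.51. That sum can count the reads of a skipping junction shared by several exons once for each exon. The cause of these shifts was not tested. Leaving out each library gave -0.94 to -0.78 for Kctd17. Of all dCas9-SET2 events, the authors' deposited table calls 262, 30 at a threshold of 0.01, and 150 among events with a mean of 5 reads per run. For some dCas9-SET2 events each recomputed summary of runs had the sign opposite to the authors' deposited difference. These were the Gnas 95-nt exon, the Kctd17 88-nt exon listed with the 94-nt exon upstream and the Kctd17 75-nt exon. No result called in the report changed direction. No paired analysis was possible because the columns carry no sample names or numbers. With 2 and 3 libraries, and medians of 1 to 25 reads per run over the Kctd17 events, small differences of inclusion were not detectable.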
